A study of Homo sapiens with 4 samples.

Results

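The genes described here are the nuclear genes of the mitochondrial respiratory chain and the ATP synthase. They were chosen by symbol, as protein-coding genes whose symbol begins with NDUF, UQCR, ATP5 or COX followed by a digit, or is SDHA, SDHB, SDHC or SDHD. The rule found 108 of the 19951 protein-coding genes of the GENCODE release 29 annotation. Total RNA depleted of ribosomal RNA had been sequenced from HepG2 and Huh7, human cell lines that the paper calls hepatocellular carcinoma lines. Group A was untreated HepG2 cells, group B was HepG2 cells after sonodynamic therapy (SDT), group C was untreated Huh7 cells, and group D was Huh7 cells after the same therapy. SDT uses ultrasound to activate a sensitizer that the cells have taken up, and here targeted nanobubbles carried the sensitizer HMME together with lonidamine (LND). LND is a drug known to act on mitochondrial respiration and pyruvate uptake. Each of the 4 groups was 1 library, so no value below has a replicate error and no test over samples could be made.

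The deposited tables hold gene lists and no expression values. A gene is called "listed" here when the authors called it differentially expressed between the libraries of 1 cell line, at an adjusted p-value under 0.05, and the gene stands under at least 1 Gene Ontology (GO) term of that comparison. The lists give no direction, so whether a listed gene was higher or lower after SDT is not stated for any gene. A gene that is not listed may have been tested and not called, may have been too low to test or may lack a GO term, and these cases cannot be told apart. The tables give no read depth, and the cell line labels could not be set against marker levels. In bulk RNA, fewer cells of a type and less RNA per cell cannot be told apart.

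The respiratory chain sits in the inner membrane of the mitochondrion. Complexes I and II take electrons from NADH and succinate, complex III passes them to cytochrome c, and complex IV gives them to oxygen, while complexes I, III and IV pump protons. Complex V, the ATP synthase, uses the proton gradient to make ATP. Most subunits are encoded in the nucleus, and the remaining core subunits in the mitochondrial DNA, so complexes I, III, IV and V need products of both genomes.

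Sequence identity matters for these genes because several share exons with a neighbour. The annotation gives some of them a read-through gene, a transcript that starts in one gene and ends in the next. In each pair below the read-through or overlapping gene was listed in at least 1 cell line, and not every listed overlapping gene is shown. Each line is 60 coding bases, 5′ to 3′, from GENCODE release 29 transcripts, with the bases of the shared exon in lower case and capitals from the splice junction, after which the transcripts use different exons. In the first 3 pairs the opening capitals happen to be the same letters in both lines, although they come from different exons.
NDUFC2: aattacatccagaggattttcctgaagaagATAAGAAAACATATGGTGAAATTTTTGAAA
NDUFC2-KCTD14: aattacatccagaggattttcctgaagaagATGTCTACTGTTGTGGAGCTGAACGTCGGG
ATP5MF: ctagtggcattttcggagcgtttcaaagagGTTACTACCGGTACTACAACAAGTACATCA
ATP5MF-PTCD1: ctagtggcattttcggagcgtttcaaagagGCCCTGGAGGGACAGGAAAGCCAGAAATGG
COX8A: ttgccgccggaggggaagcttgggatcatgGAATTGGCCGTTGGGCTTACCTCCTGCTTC
AP000721.1: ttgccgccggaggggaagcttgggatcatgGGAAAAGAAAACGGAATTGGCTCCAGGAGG
COX6A1: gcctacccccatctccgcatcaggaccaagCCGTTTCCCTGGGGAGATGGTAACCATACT
AL021546.1: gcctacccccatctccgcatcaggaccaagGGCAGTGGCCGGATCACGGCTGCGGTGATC
ATP5PO: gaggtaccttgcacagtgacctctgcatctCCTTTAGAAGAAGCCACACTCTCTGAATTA
AP000311.1: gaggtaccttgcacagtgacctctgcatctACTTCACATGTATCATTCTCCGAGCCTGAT

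A read from the lower-case side of these junctions could come from either gene of the pair. The unbroken run shared up to the junction was 431 bases for NDUFC2 and its read-through, and 141 bases for ATP5MF and its read-through. The run was 175 bases for COX8A with AP000721.1, 175 bases for COX6A1 with AL021546.1, and 655 bases for ATP5PO with AP000311.1. AP000721.1, AL021546.1 and AP000311.1 have no name beyond a clone identifier in the annotation. How the authors assigned reads within such pairs is not given in the sources used here.

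The first question was how many of the 108 genes were listed after SDT in each cell line. In HepG2 cells 6 were listed, or 5.56%, where 23.9% of all protein-coding genes were. In Huh7 cells 8 were listed, or 7.41%, where 21.9% of all protein-coding genes were. A single gene, the read-through NDUFC2-KCTD14, was listed in both cell lines, or 0.926% of the members, where 11.4% of all protein-coding genes were. It made up 1 of the 6 members listed in HepG2 and 1 of the 8 listed in Huh7. Among all protein-coding genes, 2276 of the 4768 listed in HepG2 and of the 4360 listed in Huh7 were in both. With 6 and 8 listed members little can be read from this overlap. In neither cell line were 95 members listed, or 88.0%, beside 65.7% of all protein-coding genes. Both shares of the members lay below the background shares, and the difference was not tested because the members are not replicates.

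**Figure D1:**
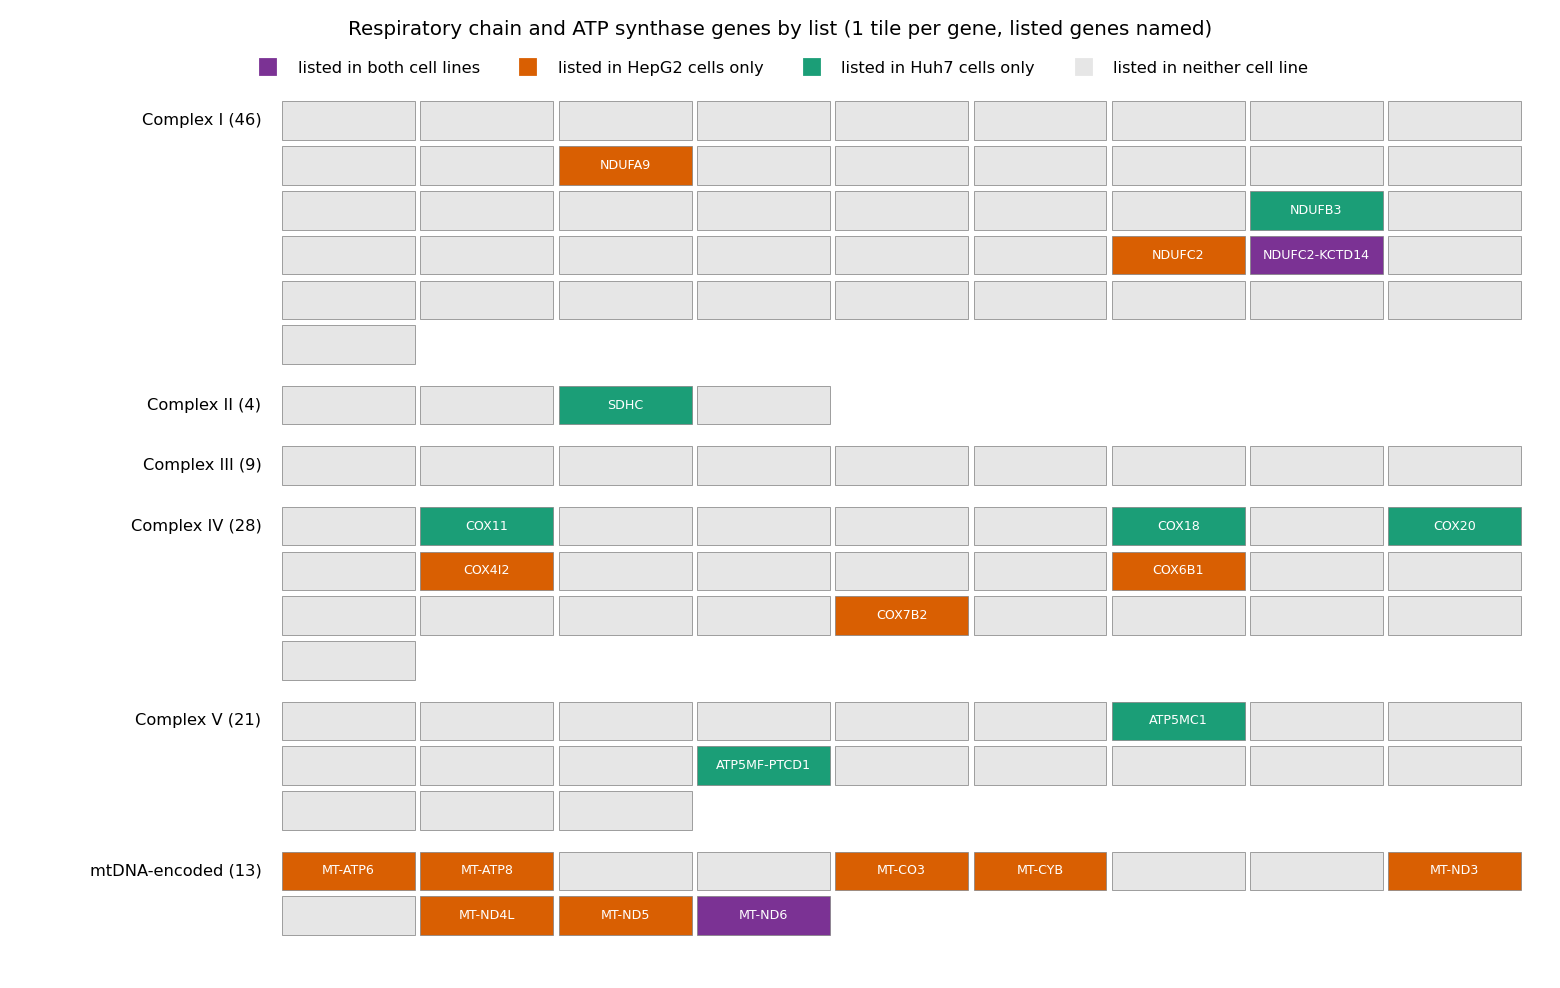
Each tile is 1 gene, grouped by complex, with the 13 genes of the mitochondrial DNA as the last group, the color gives the list it stands in, and the listed genes are named. Most tiles of complexes I to V are grey (listed in neither cell line), whereas 8 of the 13 mitochondrially encoded genes are colored.

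Complex I, the NADH dehydrogenase, was the largest group with 46 genes. In HepG2 cells 3 of them were listed (6.52%) and 2 in Huh7 (4.35%), beside 23.9% and 21.9% of all protein-coding genes. The HepG2 genes were NDUFA9, an accessory subunit next to the quinone site, NDUFC2, an accessory subunit of the membrane arm, and NDUFC2-KCTD14. The Huh7 genes were NDUFB3, an accessory subunit of the membrane arm, and again NDUFC2-KCTD14. None of the 7 nuclear core subunits, among them NDUFS1 and NDUFV1, which carry iron-sulfur clusters and, for NDUFV1, the flavin, was listed in either cell line. None of the 8 assembly factors with an NDUFAF symbol was listed either. With 7 and 8 genes little can be read from these absences. Of the 30 accessory subunits, 2 were listed in HepG2 and 1 in Huh7.

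The listing of NDUFC2 and NDUFC2-KCTD14 in HepG2 rests on partly shared sequence. Of the 75-base stretches in NDUFC2-KCTD14 transcripts, 70.7% also occur in another gene, with 37.4% in NDUFC2. Seen from NDUFC2, 12.9% of the stretches are shared with the read-through, and the rest are its own. In Huh7 cells the read-through was listed without NDUFC2. KCTD14, the other parent gene, was listed in both cell lines. Which of the 3 genes the reads came from was not tested.

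Complex II, succinate dehydrogenase, has 4 genes and also belongs to the citric acid cycle. SDHC, which anchors the enzyme in the membrane and helps to bind quinone, was listed in Huh7. SDHA, the flavoprotein, SDHB, the iron-sulfur subunit, and SDHD, the other anchor, were listed in neither cell line. No complex II gene was listed in HepG2. With 4 genes little can be read from this, and 1 of 4 in Huh7 (25.0%) was near the background of 21.9%. Core subunits encoded in the mitochondrial DNA are counted apart below. SDHC alone was listed among the 17 nuclear genes of the 5 complexes classed here as core. Its longest transcript is 13566 bases, the longest of all members, and 1.07% of its 75-base stretches occur in another gene.

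Complex III, the cytochrome bc1 complex, had no listed gene among its 9 nuclear members in either cell line. These include UQCRC1 and UQCRC2, the large core proteins, and UQCRFS1, the Rieske iron-sulfur protein. Over all protein-coding genes 23.9% were listed in HepG2 and 21.9% in Huh7, and with 9 genes little can be read from the absence. CYC1, the cytochrome c1 of this complex, and CYCS, the cytochrome c that carries electrons to complex IV, fall outside the symbol rule and were also listed in neither cell line.

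Complex IV, cytochrome c oxidase, had 3 of 28 members listed (10.7%) in each cell line, beside 23.9% and 21.9% of all protein-coding genes. None was in both lists, where 11.4% of all protein-coding genes were, and with 3 genes in each list little can be read from that. In HepG2 cells the listed genes were subunits: COX6B1, a subunit on the cytochrome c side, and COX4I2 and COX7B2, isoforms of subunits COX4I1 and COX7B. COX4I2 is known from lung and from cells low in oxygen, and COX7B2 from testis. In Huh7 cells they were assembly factors: COX11, a copper chaperone, COX18, which inserts part of subunit 2 into the membrane, and COX20, a chaperone of subunit 2. Of the 10 assembly factors or regulators of complex IV, 3 were listed in Huh7 and 0 in HepG2. Of the 10 accessory subunits 1 and of the 7 isoforms 2 were listed in HepG2, beside 0 of either in Huh7. COX4I1, the common form of subunit 4, was listed in neither. With so few genes, 2 of 7 isoforms in HepG2 and 3 of 10 assembly factors in Huh7 were near the background of 23.9% and 21.9%. Whether the kinds of gene differ between the cell lines was not tested, since the genes were sorted into kinds with the lists known.

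Sequence shared with other genes was low for these 6 genes. None of the 75-base stretches of COX4I2, COX6B1, COX7B2 or COX18 occurs in another gene. For COX11 the share was 0.766%, with its pseudogene COX11P1, and for COX20 it was 2.76%, mostly with COX20P1.

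Complex V, the ATP synthase, had no gene listed in HepG2 and 2 of 21 (9.52%) in Huh7. Over all protein-coding genes the shares were 23.9% and 21.9%. ATP5MC1 is 1 of 3 genes for subunit c, which forms the rotor ring in the membrane, and all 3 make the same mature protein. ATP5MC2 and ATP5MC3 were not listed. ATP5MF-PTCD1 is the read-through of ATP5MF, a membrane subunit, and PTCD1, which codes for a protein of mitochondrial RNA processing. Of its 75-base stretches 81.2% occur in another gene, and 78.8% of all its stretches occur in PTCD1. ATP5MF and PTCD1 were listed in neither cell line. The catalytic subunits ATP5F1A and ATP5F1B and the inhibitor ATP5IF1 were listed in neither.

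Taking the classes across complexes, the 77 nuclear core and accessory subunits had 3 listed genes in each cell line (3.90%). Over all protein-coding genes 23.9% were listed in HepG2 and 21.9% in Huh7. Of the listed subunits 0 were shared, where 11.4% of all protein-coding genes were in both. With 3 genes in each list little can be read from that. The subunits listed in HepG2 were COX6B1, NDUFA9 and NDUFC2, and those in Huh7 were ATP5MC1, NDUFB3 and SDHC. Isoforms and paralogs had 2 of 9 listed in HepG2 (22.2%), near the background, and 0 in Huh7. Assembly factors and regulators had 0 of 20 in HepG2 and 3 of 20 (15.0%) in Huh7. Both read-through genes, NDUFC2-KCTD14 and ATP5MF-PTCD1, were listed in Huh7 and 1 of them in HepG2.

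**Figure D2:**
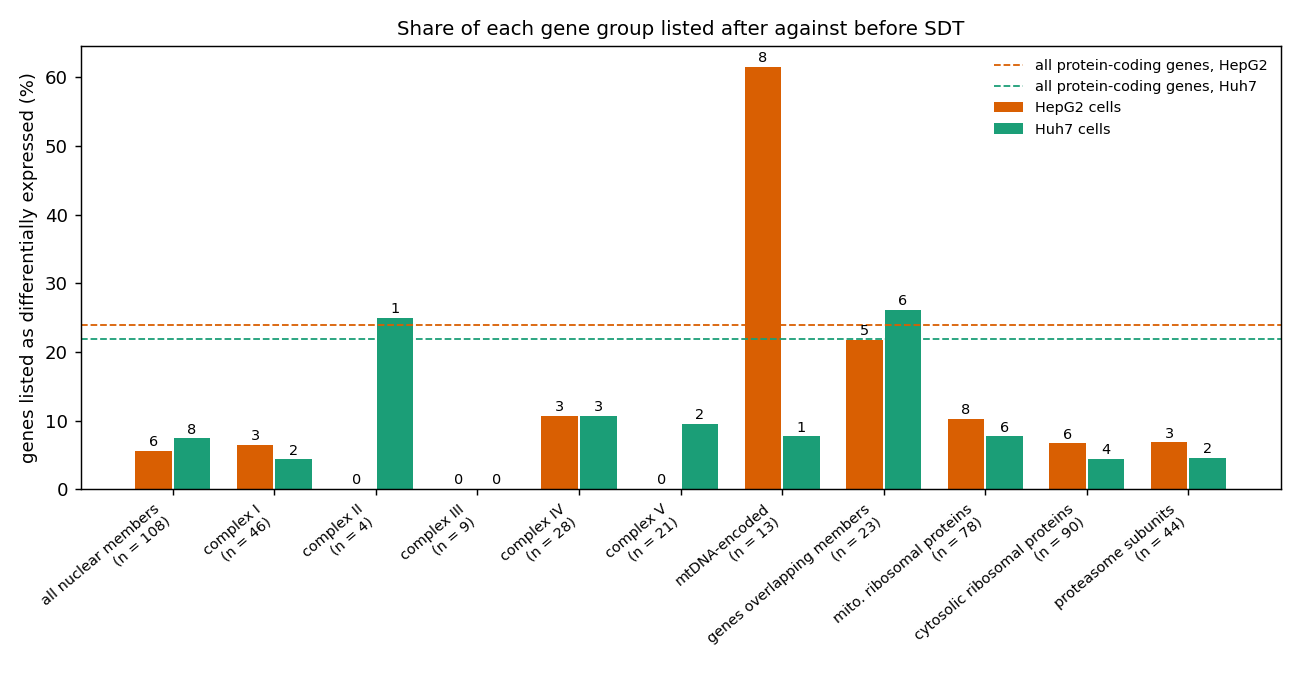
Bars give the percent of genes listed in HepG2 (orange) and Huh7 cells (green) for each group, with the number listed above each bar, and dashed lines give all protein-coding genes (23.9% and 21.9%). The bars of the nuclear members stay below the lines except for 1 of 4 genes in complex II, and the mitochondrially encoded bar of HepG2 cells reaches 61.5%.

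The subunits encoded in the mitochondrial DNA, which the rule leaves out, had another pattern. Of the 13 genes, 8 were listed in HepG2 (61.5%) and 1 in Huh7 (7.69%), beside 23.9% and 21.9% of all protein-coding genes. In HepG2 cells these were MT-ND3, MT-ND4L, MT-ND5 and MT-ND6 of complex I, MT-CYB of complex III, MT-CO3 of complex IV, and MT-ATP6 and MT-ATP8 of complex V. MT-ND1, MT-ND2 and MT-ND4 of complex I and MT-CO1 and MT-CO2 of complex IV were listed in neither cell line. MT-ND6, which is transcribed from the light strand of the mitochondrial DNA, was alone in both lists. That was 7.69% of the 13 genes, where 11.4% of all protein-coding genes were in both. The other mitochondrially encoded genes are transcribed together from the heavy strand, so they are not independent of each other. In HepG2 cells the mitochondrially encoded genes and the nuclear members were thus listed at 61.5% and 5.56%, and in Huh7 at 7.69% and 7.41%. Whether the 2 cell lines differ was not tested, because each comparison is 1 library against 1 library.

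The mitochondrial genes have copies in the nuclear genome that share sequence with them. Among the 8 listed genes, 2 shared over 10% of their 75-base stretches with another gene, MT-ATP6 at 28.0% with MTATP6P1 and MT-CO3 at 14.6% with MTCO3P12. Among the 5 unlisted genes, 4 did, up to 36.6% for MT-CO1 with MTCO1P12. MT-ND6 shared 7.10% with MTND6P4. The part of this sharing in the lists was not tested.

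The genes around the respiratory chain were described from lists of other factors. Of 35 assembly factors outside the symbol rule, 5 were listed in HepG2 (14.3%) and 2 in Huh7 (5.71%). Over all protein-coding genes the shares were 23.9% and 21.9%. LYRM7, which helps to insert the Rieske protein into complex III, was alone in both (2.86%), where 11.4% of all protein-coding genes were. The others, named after their values were seen, were NUBPL, SDHAF2, SCO1 and PET117 in HepG2 and ECSIT in Huh7. PDSS1, which makes the side chain of coenzyme Q, and COQ3 and COQ7, enzymes of its ring, were listed in both cell lines, 3 of 11 genes in each (27.3%), near the 23.9% and 21.9% of all protein-coding genes, of which 11.4% were in both. Coenzyme Q carries electrons from complexes I and II to complex III. Of 20 genes of pyruvate entry and the citric acid cycle, 0 were listed in HepG2 and 1 in Huh7. That gene, named after its value was seen, was MPC2, a subunit of the mitochondrial pyruvate carrier. Of 11 regulators of mitochondrial biogenesis, 1 was listed in each cell line (9.09%), PPARGC1B in HepG2 and PPRC1 in Huh7, both coactivators of the PGC-1 family and both also named after their values were seen. Of 11 carriers and uncoupling proteins, 2 were listed in HepG2 (18.2%) and 3 in Huh7 (27.3%), with the uncoupling protein UCP3 in both (9.09%). These shares were near the 23.9%, 21.9% and 11.4% of all protein-coding genes, so the counts are no result about these genes. The others, also named after their values were seen, were UCP1 in HepG2 and UCP2 and VDAC1 in Huh7.

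Other families of many housekeeping genes also had shares below the background of 23.9% in HepG2 and 21.9% in Huh7. Of 78 mitochondrial ribosomal protein genes, 8 were listed in HepG2 (10.3%) and 6 in Huh7 (7.69%). Of 90 cytosolic ribosomal protein genes, 6 (6.67%) and 4 (4.44%) were listed. Of 44 proteasome subunit genes, 3 (6.82%) and 2 (4.55%) were listed. A share below the background was thus also seen in families other than the respiratory genes.

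The members are shorter than the average gene. Their longest transcript had a median of 1584.5 bases, beside 3153 bases over all protein-coding genes, and 59 of the 108 fell in the shortest of 5 length classes that hold equal numbers of genes. In that class, 18.5% of all genes were listed in HepG2 and 17.4% in Huh7, whereas 4 and 2 of the 59 members were. In the next class, 24.3% and 23.4% of all genes were listed, and 1 and 2 of 20 members. When the background was weighted to the members' lengths it was 21.5% in HepG2 and 20.0% in Huh7, still above the members' 5.56% and 7.41%. Expression level could not be matched in the same way, because the tables hold none, and its part was not tested.

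**Figure D3:**
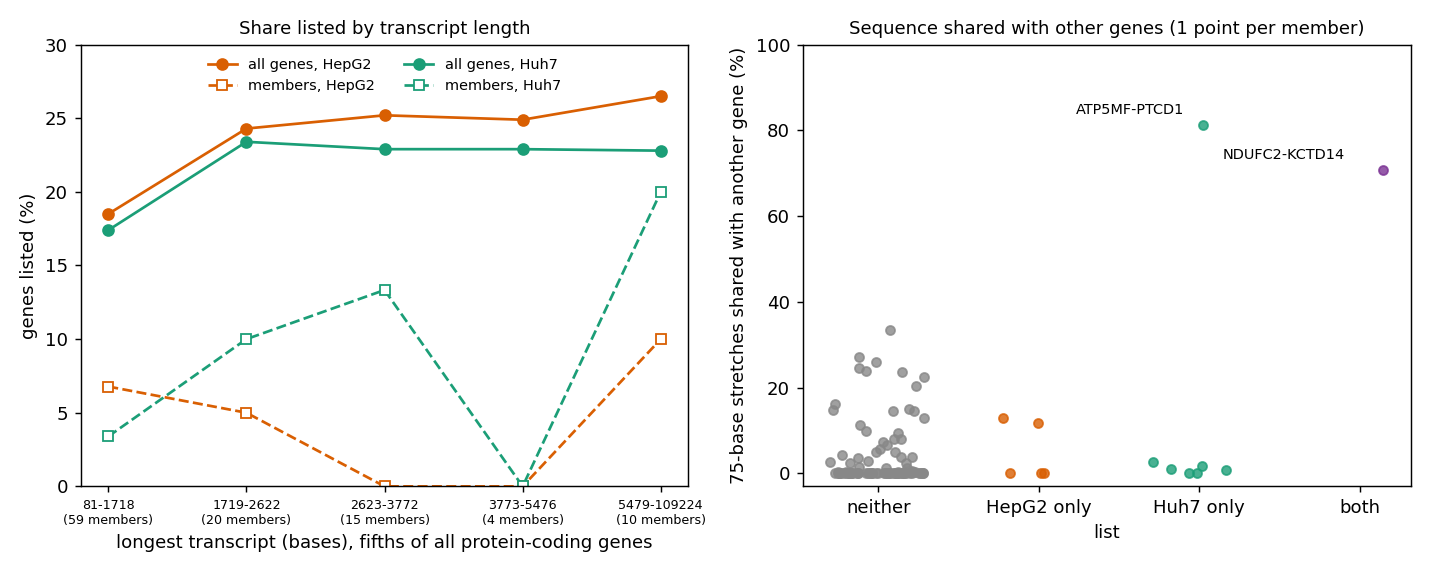
Left, percent of genes listed in each of 5 classes of longest transcript length, for all protein-coding genes (filled) and for the members (open), with the number of members under each class. Right, percent of 75-base stretches shared with another gene for each member by list, where the 2 members over 50% are the read-through genes ATP5MF-PTCD1 (81.2%) and NDUFC2-KCTD14 (70.7%).

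Listed and unlisted members overlapped in how much sequence they share with other genes. The median share was 1.07% over the 13 listed members and 0 over the 95 unlisted members, and 4 of 13 and 15 of 95 were over 10%. The listed members over 10% were the read-through genes, NDUFC2, and NDUFA9 at 11.8%. The highest unlisted member was NDUFB8 at 33.5%, all of it with the overlapping gene AL133352.1.

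Genes that share exonic bases with a member on the same strand were then counted. There were 23 of them, and 5 were listed in HepG2 (21.7%), 6 in Huh7 (26.1%) and 3 in both. These shares were near those of all protein-coding genes (23.9%, 21.9% and 11.4%), so the counts are no result about the members, and the genes are named only because of the sequence they share. Those in both were KCTD14, AP000721.1, which shares exon sequence with COX8A, and YJEFN3, which overlaps NDUFA13. In HepG2 cells the others were AL021546.1, which shares the start of COX6A1, and SYNJ2BP-COX16, a read-through into COX16. In Huh7 cells the others were AP000311.1 (with ATP5PO), AC011448.1 (with NDUFA13) and ADAP1 (with COX19). COX8A, COX6A1, COX16, ATP5PO, NDUFA13 and COX19 themselves were listed in neither cell line. In the sequences above, COX8A, COX6A1 and ATP5PO are each identical to the partner up to the junction. Whether the listed signal belongs to the member or to its partner cannot be told apart from the lists.

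The GO terms of respiration were counted next, from the numbers of listed and background genes in the tables. These terms hold the mitochondrially encoded genes and the overlapping genes as well as the members, and they share most of their genes with each other. The whole GO background was listed at 21.6% in HepG2 and 19.7% in Huh7. Of 33 terms with at least 10 background genes, 27 were below that share in HepG2 and 6 were above it, with a median of 12.9%. In Huh7 cells 32 were below and 1 above, with a median of 5.79%, counting as 0 the 4 terms that had no entry there. The term respiratory chain complex I had 6 listed genes of 66 in HepG2 (9.09%) and 3 in Huh7 (4.55%). The term respiratory chain complex IV had 6 of 23 in HepG2 (26.1%) and 1 in Huh7 (4.35%). Its assembly term had 6 of 25 (24.0%) and 4 of 25 (16.0%). The term oxidative phosphorylation had 15 of 116 (12.9%) and 8 of 116 (6.90%). The terms above the background in HepG2 were all of complex IV or cytochrome-c oxidase activity, with 22.6% to 26.1% listed. These shares were near the 21.6% of the whole background and rest on 4 to 7 listed genes in overlapping terms. In HepG2 cells members were 0 of the listed genes in the complex IV assembly and biogenesis terms, and 2 of the 6 in respiratory chain complex IV. In Huh7 cells members were 3 of the 4 listed genes in respiratory chain complex IV assembly. They were 2 of the 3 in its mitochondrial assembly and biogenesis terms, and 0 of 1 in respiratory chain complex IV.

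**Figure D4:**
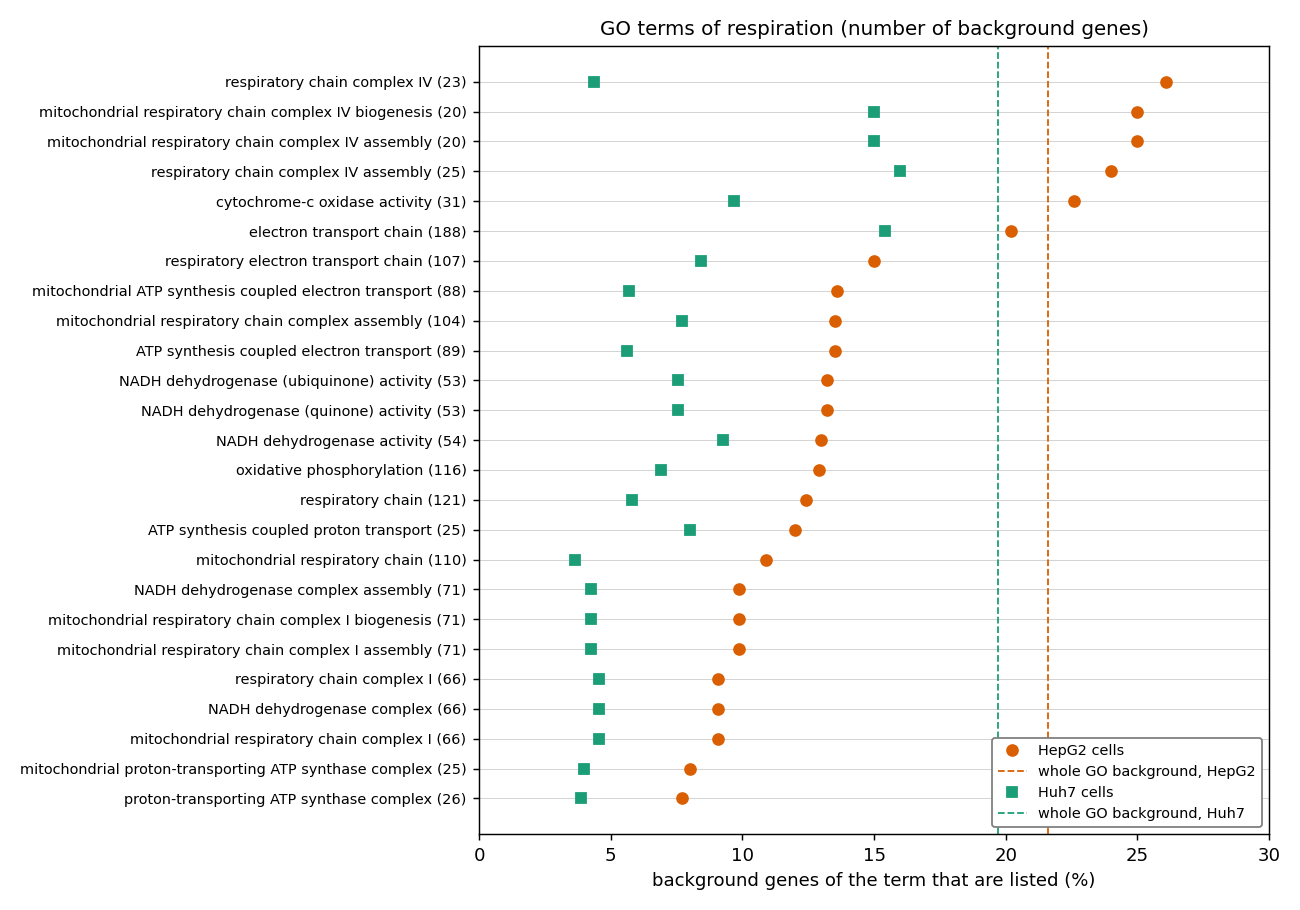
Percent of the background genes of each GO term that were listed in HepG2 (circles) and Huh7 cells (squares), for the terms with at least 20 background genes, whose number stands in brackets, with dashed lines for the whole background (21.6% and 19.7%). The complex IV terms lie to the right of the HepG2 line, and all squares lie to the left of the Huh7 line.

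The KEGG pathway oxidative phosphorylation held 23 listed genes of 133 in HepG2 (17.3%) and 14 of 133 in Huh7 (10.5%). Summed over all KEGG pathways, where a gene counts once in each of its pathways, 26.3% and 25.8% were listed. Nuclear respiratory genes were a minority of the genes listed under oxidative phosphorylation. In HepG2 cells the 23 listed genes were 6 members, 7 mitochondrially encoded genes, 9 genes of the vacuolar ATPase and AP000721.1. In Huh7 cells the 14 were 5 members, 1 mitochondrially encoded gene, 5 genes of the vacuolar ATPase, AP000721.1, AP000311.1 and the phosphatase gene LHPP. The vacuolar ATPase acidifies lysosomes and is not part of the respiratory chain. In the pathway's gene links, the entries COX8A (in both cell lines) and ATP5PO (in Huh7) appear although neither gene is listed under its own identifier, while their partners AP000721.1 and AP000311.1 are. NDUFC2, counted among the 6 HepG2 members, has no link of its own there, and NDUFC2-KCTD14 has one. Parkinson's disease, a pathway that also holds the respiratory chain, had 23 of 143 listed in HepG2, of which 6 were members and 7 mitochondrially encoded, and 16 of 143 in Huh7, of which 4 were members and 1 mitochondrially encoded. Alzheimer's disease, Huntington's disease and non-alcoholic fatty liver disease held the same 6 HepG2 members among 26, 31 and 39 listed genes, and 4, 4 and 3 Huh7 members among 25, 25 and 20. Of the genes of these pathways, in the same order, 15.5%, 16.9% and 25.8% were listed in HepG2, and 14.9%, 13.7% and 13.2% in Huh7. The 25.8% was near the 26.3% summed over all pathways. COX18, COX20 and ATP5MF-PTCD1 were under no KEGG pathway.

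Promoters of the respiratory genes are known for binding sites of NRF1 and of ETS family factors such as GABP. RefSeq promoters (build GRCh38.p14, from 250 bases before to 50 bases after the start) were found for 86 of the 108 members. The NRF1 motif, spelled GCGC, then any base, then TGCGC and searched on both strands, was in at least 1 promoter of 20 of these 86 genes (23.3%), beside 9.67% of 15843 protein-coding genes with a promoter. The ETS motif CCGGAAG, searched on both strands, was in 27 (31.4%), beside 16.5% of all. Among the 8 listed members with a promoter, 2 held the NRF1 motif (25.0%), and among the 78 unlisted members 18 did (23.1%). The 2 listed members were COX18 and NDUFA9, whose windows are shown with the motif in capitals, 5′ to 3′ on the strand of the gene. That of COX18 is on the minus strand at chr4:73069744-73069773, and that of NDUFA9 on the plus strand at chr12:4649024-4649053.
COX18: gcaggcaggcGCGCATGCGCtttatgcccg
NDUFA9: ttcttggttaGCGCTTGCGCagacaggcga

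The motif begins 47 bases before a start of COX18 and 80 bases before that of NDUFA9. A match describes these letters and says nothing of binding in these cells. The ETS motif was in 2 of the 8 listed members (25.0%) and 25 of the 78 unlisted members (32.1%).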

How the data were processed

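Total RNA of HepG2 and Huh7 cells before and after SDT, 1 library per group, was sequenced after depletion of ribosomal RNA with a strand-specific kit per the labels. The submitters' processing notes name HISAT2, StringTie 1.3.1, Cuffdiff 2.1.1 and Bowtie2 2.2.8. The paper's methods name Cuffdiff and its results edgeR for differential expression. The build, the annotation and the counting of reads on shared exons are not given in the sources used here.

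The authors deposited GO tables (GOseq) and KEGG tables (KOBAS) for B vs A and D vs C, with the listed and background genes of each term as numbers of genes. Columns of the authors' p-values were not used. No expression, reads or depth were available for use, so no interval was computed.

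All identifiers that stood under any GO term made up 4783 genes for HepG2 and 4369 for Huh7, the list sizes stated in the tables. Of these 4768 and 4360 were protein-coding by GENCODE release 29, matched by identifier. The members and gene lists were chosen with earlier results of these data known. Classes (core, accessory, isoform, assembly) were assigned by hand from gene function. In these classes COX4I1 counts as core and ATP5MC1 as accessory. NDUFA4 and NDUFA4L2 were placed in complex IV, and ATP5S is the older symbol of DMAC2L. Genes named were every listed member, core subunits (not every one is reported here by name), the mitochondrially encoded genes, genes of other lists listed in both cell lines, and overlapping genes that were listed. GO terms were named by fixed words with at least 10 background genes. Shared sequence was the share of 75-base stretches of a gene's transcripts found in a transcript of another gene. No statistical test was made. Scripts were tested on simulated lists and used Python 3.11.15, pandas 2.3.3 and numpy 2.4.6. Alternatives were other symbols, narrower gene sets, KEGG in place of GO and other backgrounds. Coordinates are of GRCh38.p14 promoters, not of the authors' files.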

Additional observations from a re-analysis of the deposited data

How the results depend on the processing

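In HepG2 cells the number of listed members was 6 and ranged from 4 (without isoforms of 1 tissue) to 6 over the alternatives. In Huh7 cells it was 8, and became 3 with subunits only, since the 3 assembly factors and both read-through genes then drop out, and 5 with KEGG pathways in place of GO terms, since COX18, COX20 and ATP5MF-PTCD1 are in no pathway. The gene listed in both cell lines is a read-through, so that count became 0 with subunits only and 0 without the read-through genes, the latter an alternative chosen after seeing the data. The background share of 23.9% in HepG2 became 21.5% when weighted by transcript length and 21.6% as list over background of the tables. That of 21.9% in Huh7 became 20.0% and 19.7%. With other symbols, narrower gene sets or other backgrounds the members stayed below the background. The background was not recounted for KEGG pathways or cellular component terms, so the members' counts there have no like share beside them. In all, 1693 genes in HepG2 and 1636 in Huh7 stood under a KEGG pathway, beside 4783 and 4369 under GO terms. By KEGG, also added after seeing the data, 7 mitochondrially encoded genes were listed in HepG2 and 1 in Huh7. No replicate could be left out, and no paired analysis was possible because each group was 1 library and no test was made. Depth is unknown from the tables.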

Other observations

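Of 24 vacuolar ATPase genes, whose symbols begin with ATP6V and which the rule does not take, 9 were listed in HepG2 (37.5%) and 5 in Huh7 (20.8%), and all 5 were also among the 9. The background over all protein-coding genes was 23.9% for HepG2, 21.9% for Huh7 and 11.4% for both, so the Huh7 share was near the background. The 5 genes in both were ATP6V0C, ATP6V0D1, ATP6V0D2, ATP6V0E2 and ATP6V1B1, subunits of the membrane sector and, for the last, of the catalytic head of the proton pump of lysosomes and other acid compartments. These genes were looked at after the pathway counts had been seen, and the share was not tested.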
